A study of Mus musculus with 8 samples.

Results

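The genes described here carry out DNA replication: they license origins, load and switch on the replicative helicase, and copy DNA at the fork. They are 50 named genes, sorted into 10 roles from the origin recognition complex to nucleotide supply. A gene was read through the probe sets that carried its symbol alone in the array's annotation, and where it had several, through the one with the highest mean log2 signal. By that rule 49 of the 50 had a probe set. Chaf1a was not analysed here. The 49 genes had 110 probe sets, and 46 genes were bright enough to be tested, with 88 tested probe sets, among 11935 tested genes of 18193 in the series. Pole, Rfc3 and Rfc4 were too dim for the test and are given by their values only.

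Mouse embryos at the 2-cell stage were profiled on Affymetrix arrays, with 4 samples labelled wild type and 4 labelled Brg1 mutant, and RNA of 20 whole embryos pooled in each sample. BRG1, encoded by Smarca4, is an ATPase of SWI/SNF chromatin remodelling complexes, and the series title concerns its maternal supply at zygotic genome activation. The labels call the samples biological replicates and give neither strain nor mutant allele, nor what drives its loss, nor whether the replicates came from separate matings. P-values therefore measure the spread between these pools, which may be technical in part. Embryo RNA at this stage is a mixture of stored maternal messages and new zygotic transcripts, and the arrays measure their sum. In such bulk samples, fewer cells of a type and less RNA per cell cannot be told apart.

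Replication begins at origins bound by the origin recognition complex. In G1, CDC6 and CDT1 load the ring-shaped MCM2-7 helicase there, and geminin, which binds CDT1, keeps loading from being repeated in the same cycle. The kinases CDC7-DBF4 and CDK then recruit CDC45 and the GINS complex, which turn the loaded ring into an active helicase. Polymerase alpha with primase starts each strand, polymerases epsilon and delta extend it on the clamp PCNA, RPA covers the single strands, and FEN1 and LIG1 join the Okazaki fragments. The early embryo divides on licensing and fork proteins and messages that the egg stored, and it begins to transcribe its own genome at this stage.

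The targeted gene was lower in the mutant samples on 1 of its 2 tested probe sets. The brighter Smarca4 probe set gave signals of 796.0, 632.1, 612.1 and 660.6 in wild type replicates 1 to 4 and 387.5, 200.9, 273.0 and 291.3 in mutant replicates 1 to 4, with no overlap. It fell by 1.26 log2 units (SE 0.249, n = 4 and 4, limma adjusted p = 0.0211), which is 2.39-fold. That call was kept without mutant replicate 1 and without mutant replicate 2 and lost without any 1 of the other 6 samples (limma adjusted p of 0.0111 to 0.0834 over the 8 fits). The other probe set overlapped between the groups, with a log2 change of 0.04 (limma adjusted p = 0.963). Mutant replicates 3 and 4 stood apart from replicates 1 and 2: over tested probe sets the arrays correlated at 0.969 between 3 and 4, at 0.895 between 1 and 2, and at 0.738 to 0.774 across the pairs. Summed over the 9 of 10 granulosa and cumulus cell markers with a probe set, signal was 422.5 to 544.0 in wild type, 569.3 to 587.8 in mutant replicates 1 and 2, and 13405 to 15764 in replicates 3 and 4, where 7 of the 9 were above every other sample. Of the other 2, Amh did not exceed the background bound in replicates 3 and 4, and Cyp11a1 read 30.1 and 39.4 there against 25.8 to 59.7 in wild type. Oocyte and 2-cell markers (8 of 10 with a probe set) summed to 20165 to 28508, to 49514 to 54138, and to 20201 to 22903 in the same order. The markers within that sum differed. In all 4 mutant samples Zar1 (2066.4 to 2819.5 against 337.0 to 410.7) and Nlrp5 were above every wild type sample. In replicates 3 and 4, Dppa3, Pou5f1, Zp3, Tcl1 and Bmp15 were below every wild type sample, and Oosp1 overlapped wild type. Spike-in controls read 4.64 and 3.31 times their wild type mean in mutant replicates 1 and 2, against 0.763 to 1.21 in wild type and 1.19 and 0.709 in replicates 3 and 4. The ratio of 3′ to 5′ actin probe sets was 16.3 to 21.1 in wild type, 12.9 and 15.05 in mutant replicates 1 and 2, and 7.04 and 4.88 in replicates 3 and 4. For Gapdh it was 8.58 to 10.1 in wild type and 6.63 to 7.33 in all 4 mutant samples. The part of these differences in the results below was not tested, and counts are therefore also given for each mutant pair alone.

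Over all 8 samples, 8 of the 46 tested replication genes were lower in the mutant embryos and 0 were higher: Cdc6, Mcm3, Mcm5, Mcm6, Cdc45, Gins2, Prim1 and Rpa3. These are 17.4% of the members. Among all tested genes of the series, 4.03% were called lower and 3.01% higher by the same limma fit, with Benjamini-Hochberg adjustment over every tested probe set and a threshold of 0.05. At an unadjusted limma p under 0.05, 15 of the 46 were lower (32.6%) and 0 higher, against 14.6% and 12.4% of all tested genes. In 12 of the 46 (26.1%) every mutant sample lay below every wild type sample, where 10.6% of all tested genes did, and 0 lay above, where 8.1% did. The 12 were the called 8 with Orc1, Mcm2, Mcm4 and Pole3. The median log2 change of the 46 was -0.31, with 35 below 0 (76.1%), and the median of all tested genes was -0.05, with 53.2% below 0.

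Fold changes of the called genes ran from 1.93 (Mcm6) to 3.14 (Cdc6). All 46 representative probe sets exceeded the background bound of their array on every array, that bound being the 95th percentile of 27 Bacillus control probe sets (signals of 14.7 to 37.7). The calls depended on single samples. None of the 8 passed without wild type replicate 1 or without wild type replicate 4, and 2 passed without wild type replicate 3 (Mcm5 and Gins2), 5 without wild type replicate 2, 4 without mutant replicate 3, and 5 without mutant replicate 4. All 8 passed without mutant replicate 1 and without mutant replicate 2. Their log2 changes stayed between -1.87 and -0.86 in those fits, and their adjusted p between 0.00735 and 0.122. The series as a whole also varied: over all tested probe sets the same fits called 33 to 1514 lower and 40 to 1411 higher. With all 8 samples the counts were 807 and 671.

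**Figure D1:**
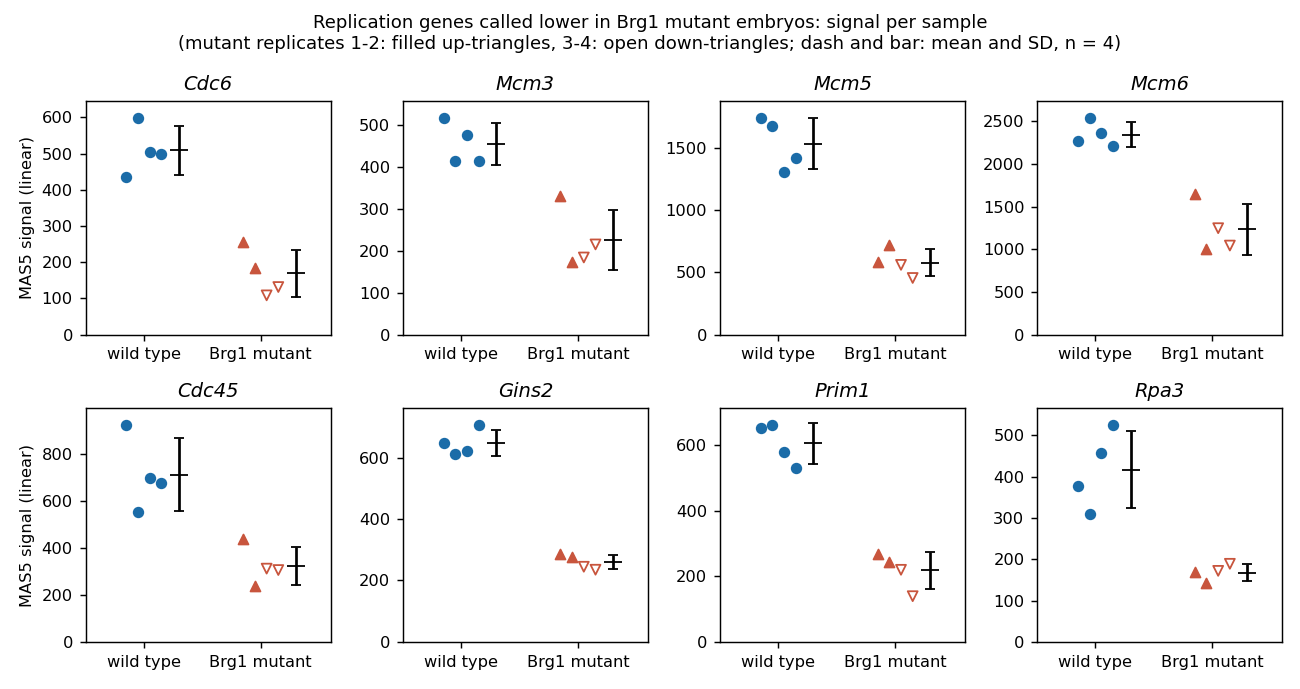
MAS5 signal (linear) of the 8 replication genes called lower, 1 panel per gene, with each wild type (circles) and Brg1 mutant sample (filled triangles for replicates 1 and 2, open for 3 and 4) and the mean and SD of each group (n = 4). In every panel the mutant points lie below the wild type points, with the widest gap relative to the spread for Gins2 (647 ± 41.5 against 260 ± 24.0).

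Among the 6 tested subunits of the origin recognition complex, 0 passed on the brightest probe set in the limma fit over all 8 samples. On these probe sets 1 was lower at an unadjusted p under 0.05. Orc1, the largest subunit and an ATPase, had the most negative change. Its signals were 386.4, 300.2, 427.6 and 457.0 in wild type and 295.7, 208.5, 110.6 and 135.0 in the mutant samples. The mutant values lay below every wild type value, the highest of them by a small margin, and those of replicates 3 and 4 were lowest. The log2 change of -1.16 (SE 0.326) missed the threshold (limma adjusted p = 0.0591), and a second Orc1 probe set had a change of 0.37 (limma adjusted p = 0.592). Orc2 was split by probe set. The brightest had a change of -0.20 (limma adjusted p = 0.753), while a dimmer one fell by 0.99 log2 units (SE 0.244, limma adjusted p = 0.0403), from 297.3, 395.5, 284.6 and 274.5 in wild type to 191.6, 171.7, 121.8 and 147.6 in the mutant samples. That dimmer probe set passed without mutant replicate 1 and without mutant replicate 2, and in none of the fits that left out 1 of the other 6 samples. On their brightest probe sets Orc3, Orc4, Orc5 and Orc6 changed by -0.35 to 0.27 (limma adjusted p of 0.529 to 0.991). Dimmer tested probe sets had changes of 0.45 and 0.40 for Orc3 and of -0.71, -0.47 and -0.35 for Orc4 (limma adjusted p of 0.216 to 0.590). The first of these Orc4 probe sets was lower in mutant replicates 1 and 2 alone (-1.26, limma adjusted p = 0.0271). In replicates 3 and 4 alone its change was -0.16 (limma adjusted p = 0.617).

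On the brightest probe sets, helicase loading gave the largest change among the members. Cdc6, the ATPase that joins the origin recognition complex and brings in the helicase, had signals of 434.5, 598.1, 504.1 and 498.7 in wild type and 255.4, 184.0, 108.4 and 131.4 in the mutant samples. The groups did not overlap, and all 4 mutant values were well under the lowest wild type value, with replicates 3 and 4 lowest. Mean signal was 509 ± 67.4 (SD, n = 4) against 170 ± 65.3, and Cdc6 fell by 1.65 log2 units (SE 0.292, limma adjusted p = 0.0167). Cdt1, which delivers the MCM ring, and Gmnn, which encodes its inhibitor geminin, did not pass over all 8 samples. Cdt1 signals were 2894 to 3624 in wild type and 1895 to 2907 in the mutant samples, with a log2 change of -0.62 (limma adjusted p = 0.126). Those of Gmnn were 2278 to 3335 and 1291 to 2419, with a change of -0.76 (limma adjusted p = 0.106). In both, mutant replicate 1 alone reached into the wild type range.

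The MCM2-7 ring holds 1 copy of each of 6 subunits. Of their genes Mcm3, Mcm5 and Mcm6 fell, Mcm2 and Mcm4 were below wild type in all 4 mutant samples without passing on their brightest probe sets, and Mcm7 overlapped wild type. Mcm5 signals were 1736.0, 1669.4, 1300.5 and 1416.3 in wild type and 580.6, 714.8, 559.2 and 454.0 in the mutant samples. Every mutant sample was clearly under the lowest wild type sample, and Mcm5 fell by 1.42 log2 units (SE 0.226, limma adjusted p = 0.0125), from 1531 ± 206 to 577 ± 107 (SD, n = 4).

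For Mcm3, wild type signals were 515.7, 413.7, 475.1 and 413.0 and mutant signals 329.9, 173.7, 183.7 and 214.8. Mutant replicate 1 lay nearest to wild type, and the groups did not overlap. The log2 change was -1.05 (SE 0.257, limma adjusted p = 0.0390). Mcm6 read 2266.1, 2535.7, 2357.7 and 2204.5 in wild type and 1645.8, 997.3, 1246.3 and 1042.9 in the mutant samples, where replicate 1 was again the highest and still under wild type. It fell by 0.95 log2 units (SE 0.230, limma adjusted p = 0.0372). Second probe sets had changes of the same sign that did not pass: -0.94 for Mcm5 (limma adjusted p = 0.135), -0.92 for Mcm6 (0.102) and -0.75, -0.66 and -0.56 for Mcm3 (0.118, 0.166 and 0.352). The representative probe sets of Mcm3, Mcm5 and Mcm6 carry the suffixes _s_at or _x_at. Affymetrix gives these suffixes to probe sets with probes that can also match other transcripts, related or not. These 3 genes had no call on a probe set without such a suffix.

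Mcm4 had a log2 change of -0.73 (limma adjusted p = 0.0653), with wild type signals of 1688 to 2048 and mutant signals of 907 to 1234. Mcm2 had a change of -0.65 on its brightest probe set (limma adjusted p = 0.141). On its second probe set Mcm2 fell by 0.86 log2 units (SE 0.224, limma adjusted p = 0.0469), from 992.8, 763.8, 907.6 and 956.5 in wild type to 627.6, 526.0, 409.4 and 445.6. That call was kept without mutant replicate 1 and without mutant replicate 2, and lost when any 1 of the other 6 samples was left out. Mcm7 had changes of 0.07 to 0.24 on its 4 tested probe sets (limma adjusted p of 0.635 to 0.885), and none passed. Its brightest probe set read 1622.9, 1392.0, 1190.6 and 1373.2 in wild type and 1320.1, 1079.2, 1681.6 and 1891.3 in the mutant samples. Mutant replicates 1 and 2 were within or under the wild type range and replicates 3 and 4 above it.

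**Figure D2:**
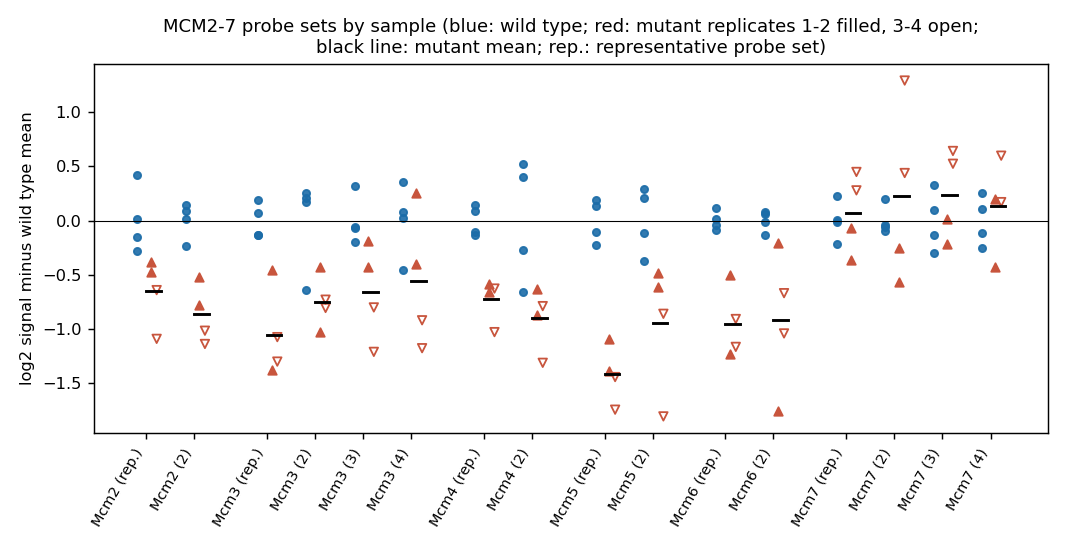
Log2 signal minus the wild type mean for each tested probe set of Mcm2 to Mcm7, by sample (wild type in blue, mutant replicates 1 and 2 as filled and 3 and 4 as open red triangles, black line for the mutant mean). Mutant means are below 0 for every probe set of Mcm2 to Mcm6 and above 0 for the 4 of Mcm7, where replicates 3 and 4 lie above replicates 1 and 2 on all but the dimmest.

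Many replication genes hold binding sites of E2F factors, which switch S phase genes on, and the upstream DNA of 4 members is shown for that reason. Each run is the 170 bases before a start of the gene in RefSeq (GRCm38.p6), written 5′ to 3′ in the direction of transcription. Capitals mark matches to TTTCCCGC, TTTCGCGC, TTTGCCGC or TTTGGCGC on either strand, joined where matches overlap. Cdc6, Mcm5 and Mcm6 were called lower, and Mcm7 was not.
Cdc6, chr11:98907981-98908150, plus strand: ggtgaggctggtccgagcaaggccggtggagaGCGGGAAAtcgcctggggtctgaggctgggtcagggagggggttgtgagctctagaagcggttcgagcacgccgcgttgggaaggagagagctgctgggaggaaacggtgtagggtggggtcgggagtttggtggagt
Mcm5, chr8:75109339-75109508, plus strand: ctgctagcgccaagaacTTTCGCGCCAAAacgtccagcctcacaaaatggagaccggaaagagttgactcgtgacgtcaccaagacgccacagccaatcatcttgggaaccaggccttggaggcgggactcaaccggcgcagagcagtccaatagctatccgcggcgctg
Mcm6, chr1:128359706-128359875, minus strand: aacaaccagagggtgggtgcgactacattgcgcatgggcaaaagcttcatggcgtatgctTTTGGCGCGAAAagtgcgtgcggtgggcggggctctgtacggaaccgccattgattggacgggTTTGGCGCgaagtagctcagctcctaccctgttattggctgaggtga
Mcm7, chr5:138171884-138172053, minus strand: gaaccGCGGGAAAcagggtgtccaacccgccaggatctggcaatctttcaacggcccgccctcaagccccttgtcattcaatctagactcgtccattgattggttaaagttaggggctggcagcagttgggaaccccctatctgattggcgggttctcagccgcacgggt

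In these stretches Cdc6 and Mcm7 have 1 match each, Mcm5 has 2 overlapping ones and Mcm6 has 3, of which 2 overlap. Over the whole window of 250 bases before to 50 after the start, 16 of the 42 members with a promoter in the table held a match (38.1%), against 2.6% of all 27025 genes in the table and 4.51% of the tested genes. Of the further replication genes described last, 8 of 45 held one (17.8%). Of the 8 called genes, 7 had a window, and 4 held a match (Cdc6, Mcm3, Mcm5 and Mcm6), while Cdc45, Prim1 and Rpa3 did not. Of the tested members that were not called, 11 of 32 held one (34.4%). For Mcm7, the whole window of the start shown held 2 matches, and that of another RefSeq start held 0. A match describes these letters and not a bound site.

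Of the 8 tested genes that activate the loaded helicase, 2 fell and 0 rose. CDC45 and GINS travel with the MCM ring as the active helicase. Gins2, which encodes 1 of the 4 GINS subunits, had signals of 648.1, 612.5, 621.4 and 704.7 in wild type and 284.6, 276.4, 244.7 and 235.0 in the mutant samples. All 4 mutant values lay close together and far under wild type. Gins2 fell by 1.32 log2 units (SE 0.201, limma adjusted p = 0.0118), the smallest adjusted p among the members. The brightest Gins2 probe set carries the suffix _s_at. The second, which has no such suffix, fell too, by 1.50 log2 units (SE 0.388, limma adjusted p = 0.0460). Its signals were 113.4 to 224.5 in wild type and 28.2 to 88.8 in the mutant samples, although that call was kept only without mutant replicate 2.

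Cdc45 read 920.2, 551.1, 696.5 and 676.7 in wild type and 436.6, 239.6, 311.5 and 305.5 in the mutant samples. The groups did not overlap, and each had 1 high sample, its replicate 1. The gene fell by 1.15 log2 units (SE 0.259, limma adjusted p = 0.0312). A second Cdc45 probe set, at signals of 22.2 to 106.7 over all samples, had a change of 0.04 (limma adjusted p = 0.973). The other 6 did not pass. Gins1, Gins3 and Gins4 had changes of -0.53 to -0.42, Mcm10, a factor that helps start the helicase, had -0.37, and the kinase pair Cdc7 and Dbf4 had 0.19 and -0.22 (limma adjusted p of 0.316 to 0.754 over these 6).

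Polymerase alpha and primase form 1 complex of 4 subunits, and 1 of the 4 genes fell. Prim1, the catalytic primase subunit that makes the RNA primer, had signals of 653.1, 660.1, 578.5 and 529.7 in wild type and 268.1, 244.5, 219.9 and 139.4 in the mutant samples. The groups were far apart, with mutant replicate 4 lowest. Prim1 fell by 1.51 log2 units (SE 0.255, limma adjusted p = 0.0145), from 605 ± 62.5 to 218 ± 56.0 (SD, n = 4). A second Prim1 probe set fell by 1.40 log2 units (SE 0.363, limma adjusted p = 0.0469), a call kept only without mutant replicate 1. The genes of its partners did not pass on their brightest probe sets: Prim2, Pola1 and Pola2 had changes of 0.16, 0.34 and 0.28 (limma adjusted p of 0.464 to 0.820).

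Of the 6 tested genes of polymerases delta and epsilon, 0 passed by limma on the brightest probe set and 0 reached an unadjusted p under 0.05 on it. On the brightest probe sets their changes ran from -0.46 to 0.10 (limma adjusted p of 0.229 to 0.974). A dimmer probe set of Pold1, the catalytic subunit of polymerase delta, had a change of 1.04 (SE 0.386, limma adjusted p = 0.126), the highest of the 88 member probe sets, with 29.2 to 61.2 in wild type and 49.7 to 119.9 in the mutant samples. A second Pole4 probe set had a change of -0.75 (SE 0.249, limma adjusted p = 0.0968), with every mutant sample below every wild type sample. On the brightest probe sets Pole3, a small histone-fold subunit of polymerase epsilon, had the most negative change, at -0.46 (SE 0.224, limma adjusted p = 0.229). Its signals were 552.7, 486.9, 570.2 and 709.7 in wild type and 456.2, 459.2, 332.9 and 436.6 in the mutant samples, which put every mutant value under wild type by a narrow margin. Pole, the catalytic subunit of polymerase epsilon, was not tested. It read 53.8, 13.2, 9.7 and 8.8 in wild type and 8.5, 7.6, 7.2 and 4.8 in the mutant samples, and only the first of these exceeded its array's background bound.

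Of the clamp and its loader, 4 genes were tested and 0 passed by limma on the brightest probe set, with 1 lower at an unadjusted p under 0.05 (Rfc5). Pcna, the sliding clamp, had a change of -0.08 (limma adjusted p = 0.901), with signals of 1661 to 3320 in wild type and 1864 to 3133 in the mutant samples. Rfc5, a small loader subunit, had the most negative change on the brightest probe sets, at -0.69 (SE 0.276, limma adjusted p = 0.152). It read 785.1, 623.0, 938.9 and 1032.5 in wild type and 595.8, 721.4, 370.1 and 444.9 in the mutant samples. Only mutant replicate 2 reached into the wild type range. Rfc1, the large subunit, had a change of -0.10 on its brightest probe set (limma adjusted p = 0.825) and fell by 0.83 log2 units on a second one (SE 0.209, limma adjusted p = 0.0431), from 546.0 to 651.8 in wild type to 290.4 to 400.5. The second call was kept without mutant replicate 1 and without mutant replicate 2, and lost without any 1 of the other 6 samples. Rfc3 and Rfc4, which were too dim for the test, read 21.7 to 63.7 over all 8 samples.

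RPA coats single-stranded DNA as a trimer, and its smallest subunit fell. Rpa3 had signals of 376.9, 310.2, 456.7 and 524.3 in wild type and 168.6, 141.5, 172.1 and 189.2 in the mutant samples. The mutant values were close together and all below wild type, whose own values were more spread. Rpa3 fell by 1.29 log2 units (SE 0.242, limma adjusted p = 0.0190). Rpa2 had a change of -0.69 (limma adjusted p = 0.281), and Rpa1, the large subunit, of -0.02 (limma adjusted p = 0.976).

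Neither of the 2 genes of Okazaki fragment maturation passed, nor reached an unadjusted limma p under 0.05. Fen1, the flap nuclease, had the highest change of all members on their brightest probe sets, at 0.59 (SE 0.438, limma adjusted p = 0.436). It read 735.8, 765.9, 1258.6 and 1091.8 in wild type and 1769.5, 1347.5, 2913.8 and 576.0 in the mutant samples, so that 3 mutant samples were above wild type and replicate 4 below it. A dimmer Fen1 probe set had a change of -0.87 (limma adjusted p = 0.255). Lig1, the ligase, had a change of 0.16 (limma adjusted p = 0.793).

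Among nucleotide supply, chromatin assembly and decatenation genes, 4 were tested and 0 passed by limma on the brightest probe set, with 1 lower at an unadjusted p under 0.05 (Rrm2). Rrm2, the regulated small subunit of ribonucleotide reductase, read 2218.9, 2076.3, 1961.5 and 1579.3 in wild type and 1671.1, 1065.5, 602.1 and 573.6 in the mutant samples. Mutant replicate 1 overlapped wild type, and replicates 3 and 4 were the lowest. The change was -1.13 (SE 0.344, limma adjusted p = 0.0730). A dimmer Rrm2 probe set fell by 1.82 log2 units (SE 0.399, limma adjusted p = 0.0285), from 720.3, 646.9, 803.9 and 726.2 to 500.9, 203.2, 146.8 and 117.0, which is 3.53-fold. That call was kept without mutant replicate 1 and without mutant replicate 2, and lost without any 1 of the other 6 samples. Rrm1, the large subunit, had a change of 0.25 (limma adjusted p = 0.622), Chaf1b, a subunit of chromatin assembly factor 1, of -0.44 (0.320), and Top2a, the decatenating topoisomerase, of -0.28 (0.703).

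**Figure D3:**
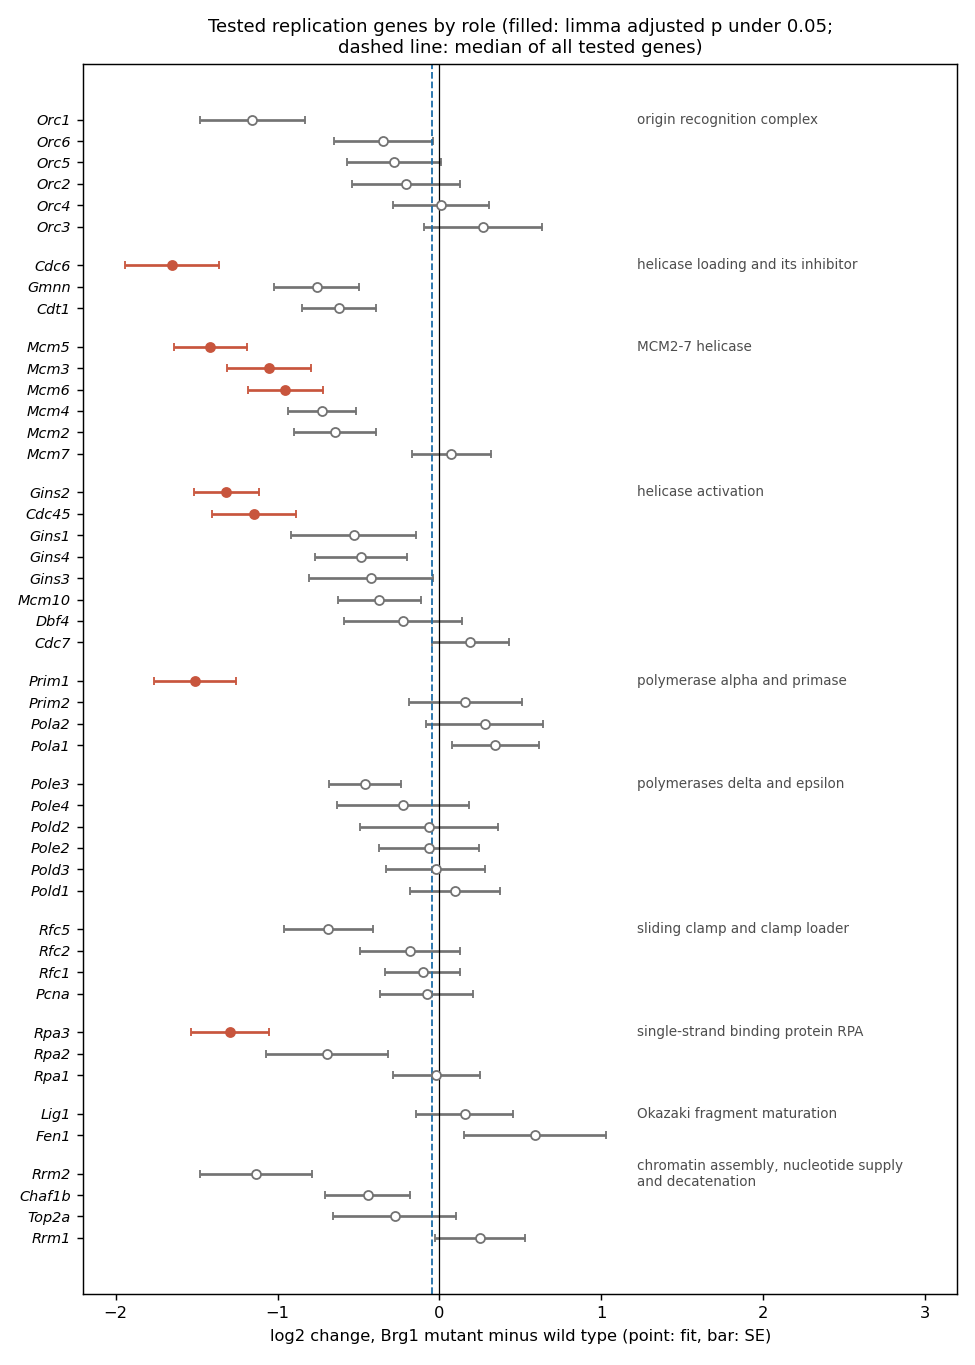
Log2 change, Brg1 mutant minus wild type, of the 46 tested replication genes by role (points with SE bars, n = 4 and 4, filled where the limma adjusted p was under 0.05). The 8 filled points lie between -1.65 and -0.95, 11 genes lie above 0, and the dashed line is the median of all tested genes, -0.05.

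Where a member had several tested probe sets they did not always read alike. The 29 such members had 42 further probe sets, of which 31 had the sign of the representative and 11 the opposite sign. Of the 42, 6 were called lower and 0 higher. The 6 were second probe sets of Gins2 and Prim1, called on both, and of Orc2, Mcm2, Rfc1 and Rrm2, called on the second only. Counted over probe sets, 14 of 88 were called lower (15.9%) against 3.58% of all tested probe sets, and 0 higher against 2.98%. At an unadjusted limma p under 0.05, 30 of the 88 were lower (34.1%) and 1 higher (1.14%), against 13.5% and 12% of all tested probe sets. Of the 46 tested genes, 12 were lower on at least 1 probe set (26.1%), against 5.71% of all tested genes by the same rule. Among genes with over 1 tested probe set, these were 10 of 29 members (34.5%) and 9.49% of all.

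The mutant replicates were also compared with wild type as pairs. The labels do not define this split, which follows the arrays' values, and both comparisons share the same 4 wild type samples. With replicates 1 and 2 alone, 5 of the 46 members were lower (10.9%) and 0 higher, against 3.58% and 3.86% of all tested genes. At an unadjusted limma p under 0.05, 12 were lower and 2 higher, against 13.3% and 13.7% of all tested genes. The 5 were Cdc6, Mcm5, Gins2, Prim1 and Rpa3, with log2 changes of -1.22, -1.24, -1.20, -1.24 and -1.41 (limma adjusted p of 0.0183 to 0.0257). Mcm3, Mcm6 and Cdc45 had -0.92, -0.87 and -1.11 there without passing (limma adjusted p of 0.0914, 0.0574 and 0.0609). Both samples lay below every wild type sample for 13 members (28.3%, against 16.4% of all tested genes) and above for 5 (10.9%, against 20.3%). The median change was -0.26, and that of all tested genes was 0.04. Over the 88 probe sets of the members, 7 were lower (7.95%) and 0 higher, beside 3.58% and 3.86% of all tested genes, which are counted by gene.

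With mutant replicates 3 and 4 alone, 23 of the 46 members were lower (50%) and 0 higher, against 24.4% and 19.2% of all tested genes. At an unadjusted limma p under 0.05, 24 were lower and 2 higher, against 30.1% and 22.5%. The called 8 were among the 23, with changes of -2.08 (Cdc6) to -1.04 (Mcm6). Also among them were Orc1 (-1.67), Rrm2 (-1.73), Rfc5 (-1.03), Cdt1 (-0.80) and Gmnn (-0.87), with limma adjusted p of 0.000133 to 0.00689. Both samples lay below every wild type sample for 26 members (56.5%, against 35.4%) and above for 4 (8.7%, against 25.8%). The median change was -0.65, and that of all tested genes was -0.19. By sample, the median log2 difference of the 46 members from the wild type mean was -0.13, -0.38, -0.70 and -0.63 in mutant replicates 1 to 4. Over the 88 probe sets of the members, 40 were lower in these samples (45.5%) and 1 was higher (1.14%), against 23.2% and 18.3% of all tested probe sets. The higher one was a dimmer probe set of Mcm7 (change of 0.86, limma adjusted p = 0.0214).

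**Figure D4:**
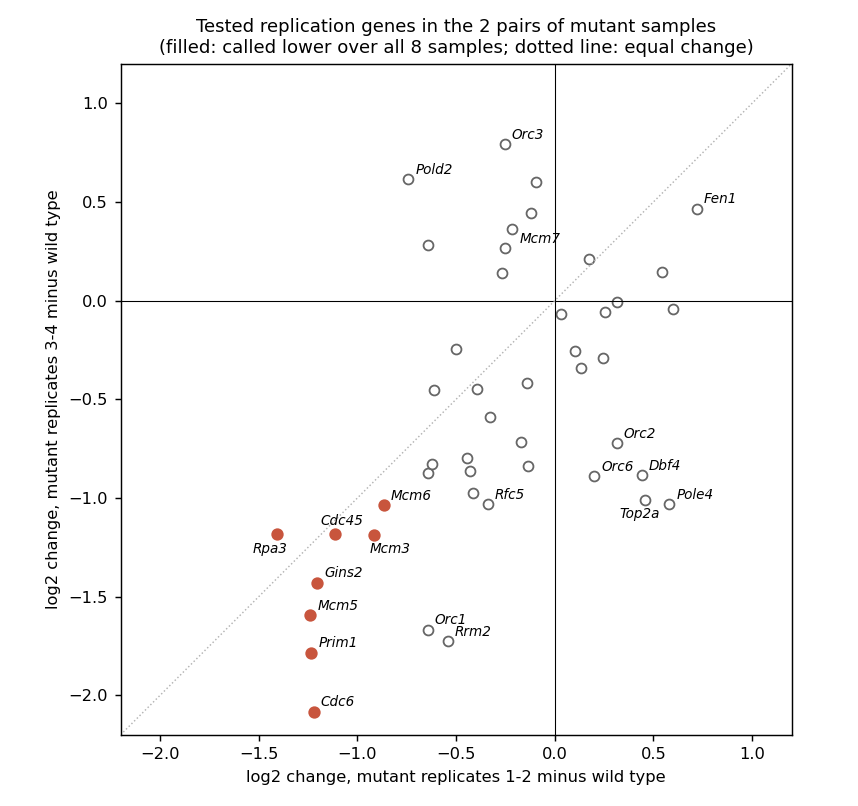
Log2 change of the 46 tested members in mutant replicates 1 and 2 (x axis) and in replicates 3 and 4 (y axis), each minus the same wild type samples, with the 8 genes called over all samples filled. The filled points lie at -0.87 or lower on both axes, and Dbf4, Orc6, Pole4 and Top2a lie at the lower right. The shared wild type samples tie the 2 axes to each other.

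Within the mutant samples, both of replicates 3 and 4 lay below both of 1 and 2 for 21 members (45.7%), close to the 42.1% of all tested genes, and above for 7 (15.2%, against 28.1%). In 4 members, replicates 1 and 2 were above every wild type sample and replicates 3 and 4 below every one (8.7%, against 4.66%): Dbf4, Orc6, Pole4 and Top2a, named here after their values were seen. Dbf4, the regulatory subunit of the CDC7 kinase, read 4178.5, 3476.1, 5483.3 and 4282.0 in wild type, 5919.3 and 5739.9 in mutant replicates 1 and 2, and 2417.5 and 2237.9 in replicates 3 and 4. Orc6 read 1169.9 to 1365.2, then 1520.9 and 1393.7, then 638.0 and 736.8. Pole4, the partner of POLE3, read 2520.0 to 3536.0, then 4099.2 and 4856.0, then 1408.4 and 1512.7. Top2a read 809.3 to 1040.4, then 1520.4 and 1126.6, then 464.3 and 482.9. The changes were 0.20 to 0.58 in replicates 1 and 2, where none passed (limma adjusted p of 0.111 to 0.580), and -1.03 to -0.89 in replicates 3 and 4, where all 4 did (0.00153 to 0.00512). A second Pole4 probe set was low in all mutant samples, with 1004.1 and 701.3 in mutant replicates 1 and 2 against 1090.5 to 1154.2 in wild type. The difference between the pairs was not tested. The oocyte and 2-cell marker sum was also highest in mutant replicates 1 and 2, and the granulosa marker sum in replicates 3 and 4, and their part in these values was not tested.

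**Figure D5:**
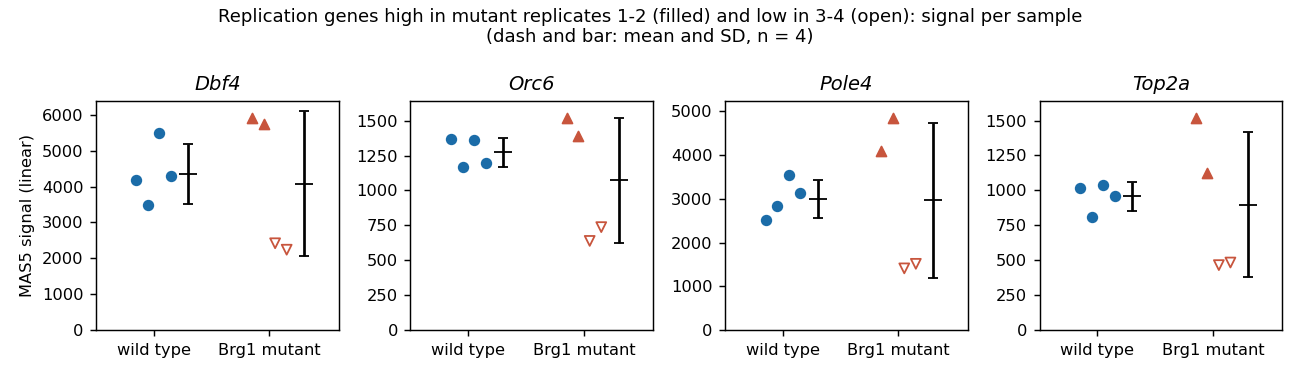
MAS5 signal (linear) of Dbf4, Orc6, Pole4 and Top2a in each sample, with wild type as circles, mutant replicates 1 and 2 as filled and 3 and 4 as open triangles. In each panel the filled triangles lie above every wild type point and the open ones below.

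The rest of the pathway was read from a list of 56 further replication genes, of which 54 had a probe set and 50 were tested. Of these, 4 were lower (8.0%, against 4.03% of all tested genes) and 0 higher (against 3.01%) over all 8 samples by limma, and their median change was -0.32. At an unadjusted limma p under 0.05, 17 were lower (34%, against 14.6%) and 2 higher (4.0%, against 12.4%). Ticrr, which with TOPBP1 brings CDC45 to the loaded helicase, read 625.0, 489.4, 527.1 and 569.3 in wild type and 405.0, 169.4, 99.1 and 78.8 in the mutant samples, with replicates 3 and 4 lowest. It fell by 1.86 log2 units (SE 0.444, limma adjusted p = 0.0368). Without mutant replicates 3 and 4 its change was -1.07 (limma adjusted p = 0.0860). Its other 2 tested probe sets had changes of -0.10 and -0.11 (limma adjusted p = 0.839 and 0.891). Mms22l and Tonsl encode a complex that protects stalled forks. Mms22l fell by 1.53 log2 units (SE 0.297, limma adjusted p = 0.0206), from 1049 to 1560 in wild type to 328 to 750 in the mutant samples, and a second probe set had a change of -0.44 (limma adjusted p = 0.311). Tonsl fell by 1.37 log2 units (SE 0.296, limma adjusted p = 0.0276), from 208.4 to 273.8 in wild type to 62.7 to 136.4 in the mutant samples. Shmt1, a folate enzyme that feeds thymidylate synthesis, fell by 1.90 log2 units (SE 0.354, limma adjusted p = 0.0185), with 1427.9, 688.7, 756.7 and 618.8 in wild type and 356.7, 192.8, 138.6 and 247.7 in the mutant samples. A second Shmt1 probe set fell by 1.36 log2 units (SE 0.313, limma adjusted p = 0.0321), a call kept without mutant replicate 1, mutant replicate 2 or wild type replicate 2 and lost without any 1 of the other 5. Another had a change of 0.10 (limma adjusted p = 0.939), with 665.8 and 576.0 in mutant replicates 1 and 2, above the 140.1 to 366.2 of wild type, and 123.7 and 140.0 in replicates 3 and 4. When single samples were left out, Ticrr, Mms22l and Tonsl passed only without mutant replicate 1 and without mutant replicate 2, and Shmt1 also without mutant replicate 4 and without wild type replicate 2. In mutant replicates 1 and 2 alone, 4 of the 50 were lower (8.0%, against 3.58% of all tested genes) and 1 higher (2.0%, against 3.86%). In replicates 3 and 4 alone, 20 were lower (40%, against 24.4%) and 6 higher (12%, against 19.2%). Dtl and Skp2, named after their values were seen, encode substrate receptors of ubiquitin ligases that remove CDT1 in S phase. Both fell on a dimmer probe set, by 1.84 and 1.11 on the log2 scale (limma adjusted p = 0.0161 and 0.0190), while their brightest had changes of -0.05 and -0.84 (0.935 and 0.0957). The other 4 tested probe sets of Dtl had changes of -0.30 to 0.51 (0.533 to 0.764), 3 of them above 0, and the other 3 of Skp2 had -1.20, -0.68 and 0.51 (0.0905, 0.147 and 0.295), with none passed. Neither of the probe sets that fell passed without wild type replicate 1, 3 or 4, and that of Skp2 did not pass without mutant replicate 3 either. Mcmbp and Nap1l1, also named after their values were seen, were lower on a dimmer probe set only (-1.24 and -0.90, limma adjusted p = 0.0436 and 0.0391). With single samples left out, both passed only without mutant replicate 1 and without mutant replicate 2. Each also had a probe set with a change above 0 (0.75 and 0.34), which did not pass. Counted over probe sets, 9 of 102 of this list were lower (8.82%) and 0 higher, against 3.58% and 2.98% of all tested probe sets.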

How the data were processed

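Each sample was 1 single-colour Affymetrix array, hybridised with biotin-labelled cRNA from the RNA of 20 embryos, per the labels. The deposited values are MAS5 intensities, linear and 1 per probe set, as the submitters' processing notes name them. No MAS5 version is stated there. Because the authors' scaling gave every array a 2% trimmed mean of 150.0, it was kept. All arrays differed from each other. Precision is limited by how few arrays there are.

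Values below 1 were raised to 1 before taking log2. With 64 control probe sets set aside, the 22519 of 45037 probe sets in the upper 50% by mean log2 signal (at least 5.25) were tested with limma 3.58.1 in R 4.3.3 (lmFit, eBayes with intensity trend, two-sided). Adjustment was by Benjamini-Hochberg over all tested probe sets, with a threshold of 0.05, and 807 probe sets were lower and 671 higher in the mutant samples. Centring each array on its 75th percentile gave 1105 lower and 497 higher. A gene's change on the log2 scale is mutant minus wild type, and a fold is 2 to its power. The fit was tested on simulated data. Probe sets were named from the platform's annotation, which gave 1 symbol to 34945, several to 932 and none to 9160.

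The members and gene lists were chosen with earlier results of these data known. Genes were named by rule: Smarca4, every gene of either list that passed, the member with the largest change in each role, and members whose probe sets differed in sign with 1 passed. Other members named were chosen after their values were seen. Promoter sequences are RefSeq's (GRCm38.p6). Alternatives covered scaling, filter, low values, variance model, replicate block, probe set suffix and left-out samples.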

Additional observations from a re-analysis of the deposited data

Results flagged for a closer look

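Of 92 groups of 4 samples (46 tested members in wild type and in mutant), 4 held a sample farther from the others than Dixon's 95% limit for 4 values, and chance alone flags about 1 in 20 groups. All 4 were mutant groups. Pola1 read 778.9 in mutant replicate 2 and 452.4 to 457.4 in the other mutant samples. Pold3 read 1804 in the same sample and 843.0 to 937.7 in the others. Pole3 read 332.9 in mutant replicate 3 and 436.6 to 459.2 in the others. Lig1 read 173.3 in mutant replicate 1 and 112.8 to 117.7 in the others. None of these 4 genes passed in the limma fit over all 8 samples.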

How the results depend on the processing

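Quantile normalization, centring on the 75th percentile, no filter, the upper 30% by signal, a pseudocount in place of the floor, no intensity trend, and leaving out probe sets with the suffixes _x_at or _s_at gave 6 to 9 members lower and 0 higher, against 8 and 0. Without the filter and without the trend, Mcm3 and Mcm6 did not pass. Without the suffixed probe sets, 4 of the 8 called genes kept their brightest probe set, and these 4 passed. On their other probe sets Mcm3, Mcm5 and Mcm6 did not pass (limma adjusted p of 0.102 to 0.167). Gins2 and Mcm2 passed on theirs (limma adjusted p of 0.0460 and 0.0478). Quantile normalization and centring moved the median of all tested genes from -0.05 to -0.14 and -0.19. Array weights gave 6388 probe sets lower and 5099 higher, 25 members lower and 2 higher (Orc3 and Rrm1), a median member change of -0.68, and 24 of the other replication genes lower and 7 higher. Without mutant replicates 1 and 2, 5233 probe sets were lower and 4126 higher, 23 members lower, the median member change -0.65, and 20 other genes lower and 6 higher. Without mutant replicates 3 and 4, 5 members were lower and 1 other gene higher. With the replicate number as a block, 5 probe sets were lower and 10 higher, with 0 members and 0 other genes lower by limma. The labels do not say whether equal numbers mark paired samples. Deviations of same-numbered samples from their group means correlated at 0.02, -0.18, -0.13 and -0.09, and those of differently numbered ones at -0.15 to 0.20. These values cannot decide on pairing, because the mutant deviations also hold the split of replicates 1 and 2 from 3 and 4. The causes of these shifts were not tested. Leaving out single samples gave 33 to 1514 probe sets lower and 40 to 1411 higher, 0 to 13 members lower, a median member change of -0.50 to -0.28, and 0 to 9 other genes lower and 0 to 3 higher. Mcm3, Mcm6 and Cdc45 each passed in 2 of the 8 such fits.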

Other observations

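Of the 50 other tested replication genes, 6 were higher in mutant replicates 3 and 4 than in wild type (12%, against 19.2% of all tested genes) and 20 lower. The 4 given here were picked after their values were seen. Rnaseh2a, the catalytic subunit of RNase H2, read 14.4 to 37.4 in wild type, 79.0 and 5.5 in mutant replicates 1 and 2, and 348.1 and 330.8 in replicates 3 and 4. Dtymk, the thymidylate kinase, read 207.4 to 445.9 in wild type, 94.7 and 132.3 in replicates 1 and 2, and 1436.5 and 1584.0 in replicates 3 and 4. Nme1, a nucleoside diphosphate kinase, read 58.8 to 292.8, then 292.6 and 139.1, then 1412.2 and 2387.0. Cul4a, the scaffold of a ubiquitin ligase that acts on CDT1, read 71.1 to 89.0, then 101.9 and 117.9, then 317.6 and 336.6. Against wild type, replicates 3 and 4 had log2 changes of 3.60, 2.28, 3.78 and 2.08 in that order, and over all 8 samples none of the 4 passed. For Dtymk, Nme1 and Cul4a the limma adjusted p in replicates 3 and 4 was 0.000128 to 0.00199. Rnaseh2a exceeded the background bound in 3 of 4 wild type samples, with a wild type mean log2 signal of 4.80, under the 5.25 needed for the test. It was tested only through its values in replicates 3 and 4, so its change is given without a p-value. In the same 2 samples the granulosa and cumulus marker sum was 13405 and 15764, and its part in these values was not tested.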
